A study of Mus musculus with 9 samples.

Results

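Interferons are secreted cytokines, and the genes described here are those of type I interferon (Ifnb1, interferon beta), of type III interferon (Ifnl2 and Ifnl3, interferon lambda), and of the receptor chains for type I, II and III interferon (Ifnar1 and Ifnar2, Ifngr1 and Ifngr2, Ifnlr1 and Il10rb). The 9 genes were taken by symbol from a table of 31167 genes, and all 9 were in it. They comprise 3 ligand genes and 6 receptor genes. RNA expression had been measured by sequencing in primary renal tubular epithelial cells of C57BL/6 mice, in 3 groups of 3 libraries. The Sham group is the negative control. The H/R group was kept at 1.0% O2 in glucose-free medium for 6 h and then returned to complete medium and normal conditions for 18 h, to mimic ischemia and reperfusion. The EGR1OV group had been transfected with a plasmid that carries Egr1 behind the cytomegalovirus promoter, so its Egr1 was driven by a strong viral promoter and not by the gene's own control. The study describes H/R, the plasmid and no treatment as the 3 alternatives. All samples share a single protocol text, however, which does not say whether Sham and H/R cells received the transfection reagent EndoFectin Max or whether EGR1OV cells also went through H/R, and no group with an empty plasmid was compared. Egr1 protein and transfected DNA therefore cannot be told apart in EGR1OV. Nothing in the labels says that libraries of a group came from separate cultures or animals, so p-values measure the spread between these libraries, which may be technical.

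Cells that sense foreign nucleic acid transcribe interferon genes through the transcription factors IRF3, IRF7 and NF-kB. Type I interferon binds the pair IFNAR1 and IFNAR2, and type III interferon binds the pair IFNLR1 and IL10RB, the second of which also serves interleukin receptors. Both pairs signal through the kinases JAK1 and TYK2 to a complex that holds STAT2 and IRF9 and induces antiviral genes, whereas type II interferon signals through IFNGR1 and IFNGR2 and the kinases JAK1 and JAK2. The response to type III interferon is largely a property of epithelial cells, because few other cells make IFNLR1.

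Values are FPKM, in which the fragments of a gene are divided by its exon length and by the size of the library, so levels can be compared between genes. FPKM steps gave the underlying reads, at a depth of 16183602 to 18383975 per library. Egr1, the overexpressed gene, stood at 6.20, 6.91 and 6.09 FPKM in Sham, 8.57, 7.59 and 7.48 in H/R and 45.7, 42.2 and 40.1 in EGR1OV, which matched the labels. Markers of tubule epithelium (14 genes in the table, 9 tested) summed to 1987 to 2035 FPKM in Sham, 1834 to 1914 in H/R and 1294 to 1403 in EGR1OV. In EGR1OV 5 of the 9 were called lower, among them Lrp2 (log2 difference -1.05), Aqp1 (-0.75), Krt18 (-0.73) and Krt8 (-0.71), and 1, Epcam, higher (0.39). Of the genes that define proximal tubule, Lrp2 was at 3.51 to 3.67 and Aqp1 at 1.23 to 1.43 FPKM in Sham, whereas Slc34a1 was at most 0.0362 FPKM in any library, and Umod, of the thick ascending limb, was at 0 in all 9. Markers of macrophages (12 genes, 9 of the 10 tested called lower in EGR1OV) summed to 150 to 154 FPKM in Sham, 125 to 135 in H/R and 24.4 to 29.8 in EGR1OV. Of all tested genes, 6.51% were called lower in EGR1OV and 9.87% higher. In such bulk libraries, fewer cells of a type and less RNA per cell cannot be told apart. The part of the tubule and macrophage markers in the receptor results was not tested. Plasmacytoid dendritic cells are the best known source of type I interferon, and their 8 markers summed to 2.31 to 2.33 FPKM in Sham, 2.47 to 2.6 in H/R and 2.26 to 2.82 in EGR1OV. Of these, 1, Siglech, was at 0 in all 9 libraries, and 1, Tcf4, which many cell types express, made up most of the sum and was not called by limma or voom.

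Ifnb1 (ENSMUSG00000048806) is a gene without introns on chromosome 4 from 88522025 to 88522774, minus strand, in GRCm38. Its upstream sequence is shown because it is the best studied of the interferon control regions and Ifnb1 is the ligand gene that was expressed. Capitals mark the letters AANNGAAA, the core bound by interferon regulatory factors, GGGANNTTC, a form of the NF-kB site, and TATAAA, the TATA box. The sequence is from RefSeq (GRCm38.p6, chr4:88522869-88522954, minus strand, 5′ to 3′) and runs from 160 to 75 bases before the RefSeq start.
Ifnb1: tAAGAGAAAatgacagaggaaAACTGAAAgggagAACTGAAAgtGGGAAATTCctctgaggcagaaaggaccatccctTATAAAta
The core AANNGAAA was found 3 times, from -159 to -152, from -139 to -132 and from -126 to -119 relative to that start. The NF-kB letters follow at -116 to -108 and TATAAA at -82 to -77. A further TATAAA lay at -210 to -205, outside the stretch shown. Searched on both strands in the 250 bases before 32851 RefSeq starts, AANNGAAA was in 21.3% of windows, GGGANNTTC in 3.23% and TATAAA in 12.4%. The paired form GAAANNGAA, in 7.13% of windows, was not found in that of Ifnb1. A match of letters is a description and shows no binding.

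Ifnb1 was not detected at this depth in Sham and H/R and was expressed at a low level in EGR1OV. It had 0 reads in each of the 3 Sham and each of the 3 H/R libraries. In EGR1OV it had 38, 37 and 24 reads, or 3.05, 3.02 and 1.90 FPKM. The EGR1OV libraries lay above all 6 others, and the third was the lowest of them. The 99 reads of the group have an exact Poisson interval of 80.5 to 121 (95%), which covers counting error only because the reads carry no molecular identifiers. Setting the other groups at a floor of 3 reads over the group, Ifnb1 was 33.4-fold higher in EGR1OV than in Sham and 34.7-fold higher than in H/R. These folds are not lower bounds, because the exact Poisson interval (95%) of 0 reads reaches 3.69, above the floor. On the log2(FPKM + 1) scale the difference from Sham was 1.85, a value that depends on the added 1 and understates low genes. Genes were tested where their mean over the 9 libraries was at least 0.5 FPKM. Ifnb1 passed this filter only through the EGR1OV libraries, so it had to differ, and its values are given as a description with no p.

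Type III interferon was at the limit of detection. Ifnl2 (ENSMUSG00000059128, chromosome 7 from 28508836 to 28510455) had 0 reads in Sham, H/R and EGR1OV 1, and 1 read each in EGR1OV 2 and 3, at 0.0872 and 0.0846 FPKM. Ifnl3 (ENSMUSG00000060747, chromosome 7 from 28522836 to 28524322) had 1 read in each of the same 2 libraries, at 0.105 and 0.102 FPKM, and 0 reads in the others. The 2 transcripts were identical at 565 of 582 aligned bases (97.1%), so it cannot be told apart whether each read came from 1 gene or the other. Both genes also lie within the span of Samd4b. The exact Poisson interval (95%) was 0.242 to 7.22 for the 2 reads of each gene in EGR1OV and 0 to 3.69 for the 0 reads in Sham, and these intervals overlap. A difference between groups was not detectable at this depth, and both genes were below the filter of a mean of 0.5 FPKM and were not tested.

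Among the interferon ligand genes outside these 3, 11 were in the table and none passed the filter. Ifna4, an alpha interferon, had 0 reads in all 6 Sham and H/R libraries and 6, 3 and 6 reads in EGR1OV, at 0.644, 0.327 and 0.636 FPKM. Against the same floor of 3 reads it was 5.06-fold higher in EGR1OV than in Sham, which is not a lower bound. The exact Poisson interval (95%) of its 15 reads in EGR1OV was 8.4 to 24.7. Ifna2 had 1 read in EGR1OV 1 and 1 in EGR1OV 2, and Ifna5 had 1 in EGR1OV 2. Ifna6 was at 0 throughout. Ifna9, Ifna11, Ifna13, Ifne and Ifnk each had reads in a single Sham library, at 0.0712 to 0.14 FPKM, and in no other library. Ifnab and Ifnz had reads in some libraries of every group, at no more than 0.175 FPKM. Alpha interferon genes are close copies of each other, so reads may be split between them. The gene of type II interferon, Ifng, was not analysed here.

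**Figure D1:**
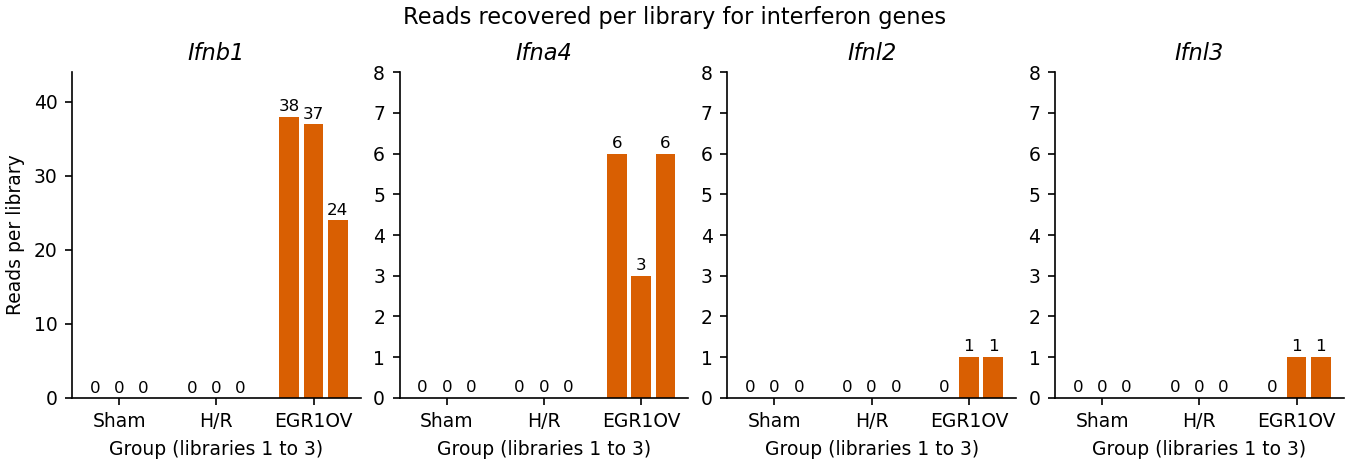
Reads per library (vertical axis, linear, own scale for Ifnb1) recovered from FPKM for Ifnb1, Ifna4, Ifnl2 and Ifnl3, one bar per library (1 to 3) in Sham, H/R and EGR1OV, with the read number above each bar. Ifnb1 has 38, 37 and 24 reads in EGR1OV and 0 in the other 6 libraries, and Ifnl2 and Ifnl3 have at most 1.

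The 6 receptor genes were expressed in every library. In Sham the type II chains were the most abundant, Ifngr1 at 50.4 ± 1.77 and Ifngr2 at 38.0 ± 1.2 FPKM (SD, n = 3). Next came the type I chains, Ifnar1 at 19.1 ± 0.77 and Ifnar2 at 7.24 ± 0.384 FPKM. The type III pair was lowest, with Il10rb at 4.97 ± 0.276 and Ifnlr1 at 2.6 ± 0.0843 FPKM. The libraries of neighbours in this order did not overlap. The same order held in H/R. In EGR1OV Ifngr2 (47.3 ± 0.874 FPKM) passed Ifngr1 (38.9 ± 1.09 FPKM), and Il10rb and Ifnlr1 came within 1.19-fold of each other, again without overlap. Ifnlr1, the only chain used by type III interferon alone, was above 30.8% of all tested genes in Sham, and Ifngr1 was above 93.6%.

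**Figure D2:**
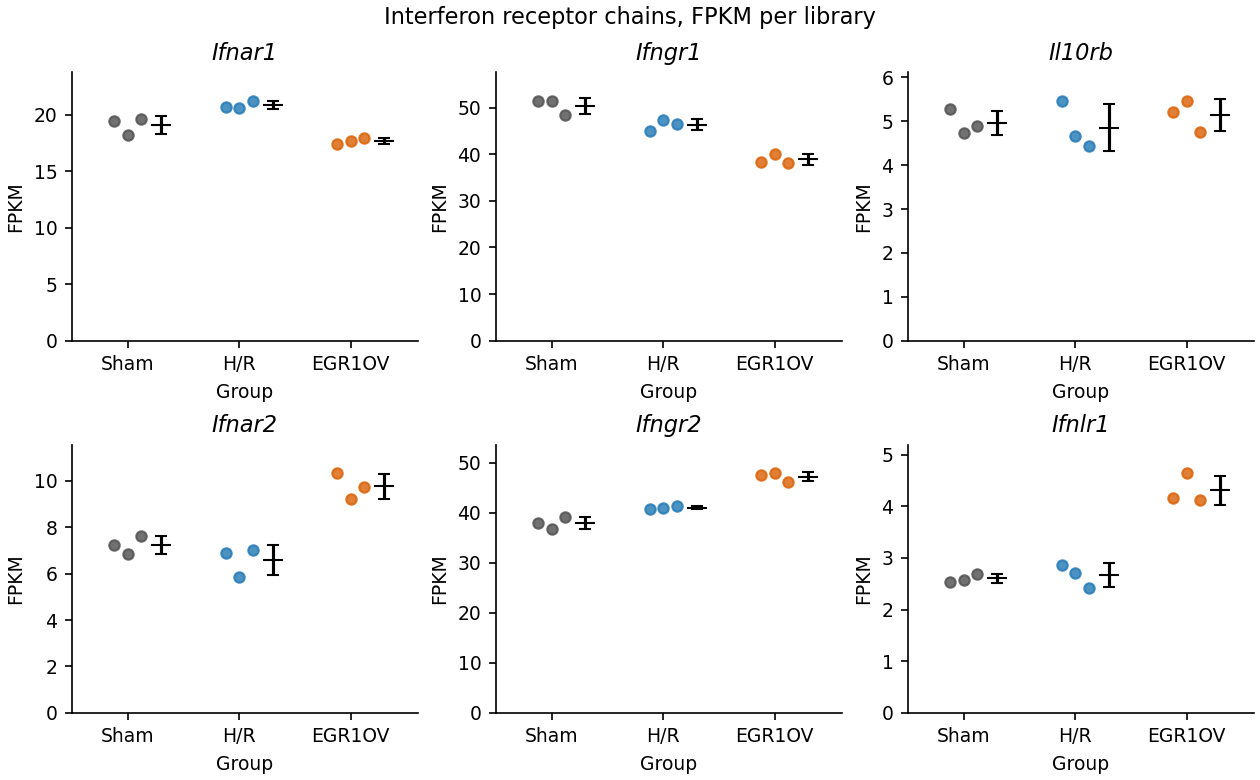
FPKM (vertical axes from 0, linear, own scale per gene) of the 6 receptor genes in each library of Sham, H/R and EGR1OV. Points are libraries, and the black bar and whiskers are the group mean and SD (n = 3). Ifnar2, Ifngr2 and Ifnlr1 are highest in EGR1OV, Ifnar1 and Ifngr1 are lowest there, and Il10rb overlaps between groups.

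EGR1OV against Sham addresses what differs after transfection with the Egr1 plasmid. Genes count as called where the adjusted p is below 0.05 and the groups differ by 1.3-fold or more on the log2(FPKM + 1) scale. Of the 7 members tested, 3 were called higher (Ifnar2, Ifnlr1 and Ifnb1, which had to differ), where 9.87% of all tested genes were. None was called lower, where 6.51% of all tested genes were. By unadjusted limma p under 0.05, 2 were lower (Ifnar1 and Ifngr1), and voom on the recovered reads called 0 lower. Without the fold threshold, 6 of 7, Ifnb1 among them, had a limma adjusted p under 0.05 (Benjamini-Hochberg), where 45.9% of all tested genes did. Of all genes called, 60.3% were higher as deposited and 45.9% after quantile normalization.

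Ifnlr1 (ENSMUSG00000062157, chromosome 4 from 135686287 to 135708181), the specific chain of the type III receptor, rose the most among the receptor genes. It was at 2.53, 2.58 and 2.69 FPKM in Sham, 2.87, 2.71 and 2.41 in H/R and 4.16, 4.64 and 4.12 in EGR1OV. The EGR1OV libraries lay above the other 6, and Sham and H/R overlapped. The ratio of means to Sham was 1.66, and the log2 difference was 0.56 (SE 0.06, limma adjusted p 7.29e-05). These values rest on 174 to 317 reads per library. Its partner Il10rb (ENSMUSG00000022969, chromosome 16 from 91406164 to 91425834) gave 5.27, 4.73 and 4.90 FPKM in Sham, 5.45, 4.67 and 4.43 in H/R and 5.2, 5.46 and 4.76 in EGR1OV. All 3 groups overlapped. The log2 difference of EGR1OV from Sham was 0.04, with a 95% interval of -0.12 to 0.21 (limma adjusted p 0.681), so differences of Il10rb within that interval cannot be told from none.

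Ifnar2 (ENSMUSG00000022971, chromosome 16 from 91372783 to 91405589), the chain that binds type I interferon most tightly, was at 7.23, 6.86 and 7.62 FPKM in Sham, 6.90, 5.87 and 7.01 in H/R and 10.3, 9.23 and 9.73 in EGR1OV. Every EGR1OV library was above the other 6. The ratio of means to Sham was 1.35 and the log2 difference was 0.39 (SE 0.07, limma adjusted p 0.00134), just past the fold threshold of 0.38. It was below that threshold without Sham 2 and without EGR1OV 1 (0.35 each), with median-ratio scaling (0.36) and with quantile normalization (0.28). Ifnar1 (ENSMUSG00000022967, chromosome 16 from 91485238 to 91507441), the signalling partner that recruits TYK2, was at 19.4, 18.2 and 19.6 FPKM in Sham, 20.7, 20.5 and 21.2 in H/R and 17.4, 17.7 and 17.9 in EGR1OV. The EGR1OV libraries were the lowest and the H/R libraries the highest, without overlap. The difference of EGR1OV from Sham was small, -7.33% of the Sham mean or -0.10 on the log2 scale (SE 0.03, limma adjusted p 0.0313), and it did not reach the fold threshold. Its limma adjusted p ran from 0.00115 to 0.108 over the alternatives, and was above 0.05 with any of Sham 1, Sham 3, EGR1OV 1 or EGR1OV 2 left out and with only the 6 libraries compared in the fit.

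Ifngr1 (ENSMUSG00000020009, chromosome 10 from 19591949 to 19610229), the chain that binds type II interferon, was at 51.5, 51.4 and 48.4 FPKM in Sham, 45.1, 47.5 and 46.5 in H/R and 38.4, 40.2 and 38.2 in EGR1OV. The 3 groups did not overlap, with EGR1OV lowest. The log2 difference of EGR1OV from Sham was -0.37 (SE 0.03, limma adjusted p 2.52e-05), just short of the fold threshold. It passed that threshold with median-ratio scaling (-0.39), with quantile normalization (-0.44), without Sham 3 and without EGR1OV 2 (-0.39 each). Ifngr2 (ENSMUSG00000022965, chromosome 16 from 91547072 to 91565169), its partner that recruits JAK2, was at 38.1, 36.8 and 39.2 FPKM in Sham, 40.8, 41.0 and 41.3 in H/R and 47.6, 47.9 and 46.3 in EGR1OV. Here too the groups did not overlap, but EGR1OV was highest. The log2 difference from Sham was 0.31 (SE 0.03, limma adjusted p 2.23e-05), under the fold threshold.

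**Figure D3:**
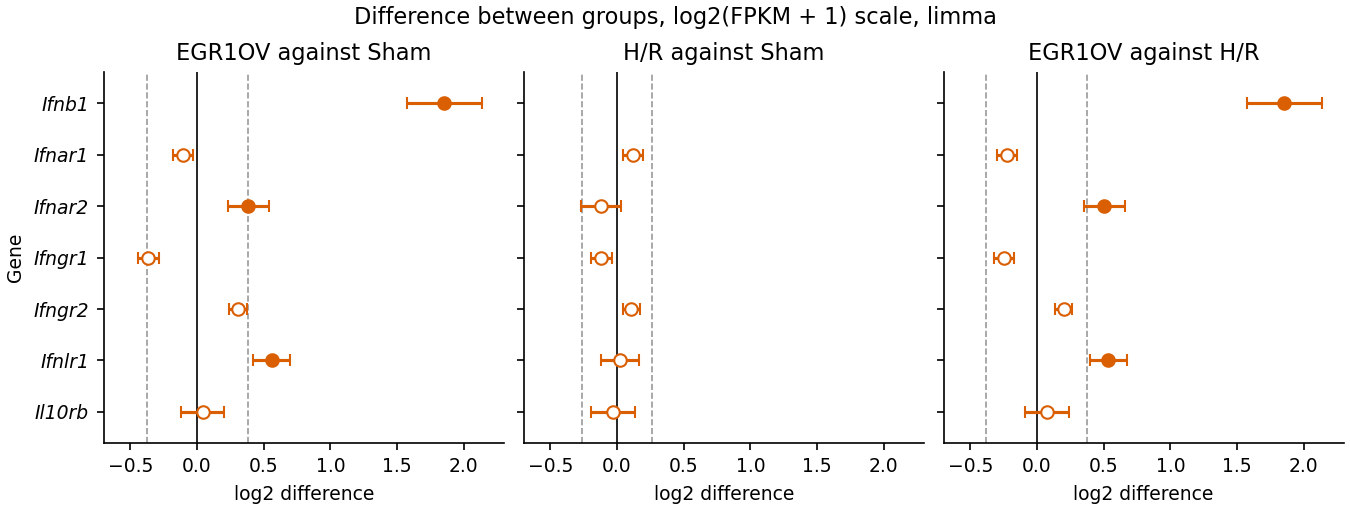
Difference between groups on the log2(FPKM + 1) scale (horizontal axis) for the 7 tested genes in 3 comparisons, from limma, with 95% intervals. Filled points were called, open points were not, and dashed lines mark the fold thresholds (0.38 in either direction for comparisons of EGR1OV, 0.26 for H/R against Sham). Ifnb1, Ifnar2 and Ifnlr1 are called in both comparisons of EGR1OV, Ifnb1 having passed the filter only through EGR1OV, and no gene is called after H/R, where Ifnb1 is not drawn because all 6 libraries were at 0.

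H/R against Sham addresses what differs after hypoxia and reoxygenation, with a fold threshold of 1.2. None of the 7 members was called higher, where 1.6% of all tested genes were, and none was called lower, where 2.65% were. Ifnb1, at 0 in every library of both groups, could not be called here. Voom on the recovered reads called 0 members as well. By unadjusted limma p under 0.05, 3 differed, Ifngr2 (log2 difference 0.11), Ifnar1 (0.12) and Ifngr1 (-0.12). The share of all tested genes at this unadjusted cut was not computed. Without the fold threshold, 1 member, Ifngr2, had a limma adjusted p under 0.05 (0.0414), where 11.7% of all tested genes did, and over the alternatives that p ran from 0.0115 to 0.123. It was above 0.05 with any library of either group left out other than Sham 3. The limma adjusted p was 0.0506 for Ifnar1 and 0.0574 for Ifngr1. Over the alternatives it ran from 0.0195 to 0.141 for Ifnar1 and from 0.0333 to 0.192 for Ifngr1. The 3 H/R libraries lay outside the Sham range for each of these genes, and the share of all genes that did so was not computed. Ifnar2 differed by -0.12 on the log2 scale, with a 95% interval of -0.27 to 0.03. The intervals were -0.12 to 0.16 for Ifnlr1 and -0.20 to 0.13 for Il10rb. Of all genes called after H/R, 37.7% were higher as deposited, against 58.2% with median-ratio scaling and 56.5% with quantile normalization.

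The treated groups were also set against each other, as a test of whether their departures from Sham are unequal. Both earlier comparisons share the Sham libraries, and this comparison shares libraries with each of them. Of the 7 members tested, 3 were called higher in EGR1OV (11.9% of all tested genes were) and 0 lower (6.94% were). The 3 were again Ifnar2, Ifnlr1 and Ifnb1, of which Ifnb1 had to differ because it passed the filter only through EGR1OV. By unadjusted limma p under 0.05, 2 were lower, and voom called 0 lower. Without the fold threshold, 6 of 7, Ifnb1 among them, had an adjusted p under 0.05 in limma, as did 51.0% of all tested genes. The log2 difference was 0.54 for Ifnlr1 (limma adjusted p 8.32e-05) and 0.51 for Ifnar2 (0.000215). For Ifnar2 it was 0.38 after quantile normalization, short of the threshold. Ifnar1 differed by -0.22, Ifngr1 by -0.25 and Ifngr2 by 0.20, all below the fold threshold. Of all genes called here, 63.2% were higher as deposited, against 51.0% with median-ratio scaling and 42.5% with quantile normalization.

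In each receptor the partner chains differed unequally in EGR1OV. Ratios of partner chains were formed within each library, a measure chosen after the values were seen and free of the scaling between libraries. Ifnar2 over Ifnar1 was 0.373, 0.377 and 0.388 in Sham, 0.334, 0.286 and 0.331 in H/R and 0.592, 0.523 and 0.542 in EGR1OV. The groups did not overlap, with H/R lowest and EGR1OV highest, and the EGR1OV ratio was 1.45-fold that of Sham. Ifngr2 over Ifngr1 was 0.739, 0.715 and 0.810 in Sham, 0.904, 0.865 and 0.887 in H/R and 1.24, 1.19 and 1.21 in EGR1OV. Again no groups overlapped, and the chain with the lower FPKM in Sham and H/R had the higher FPKM in EGR1OV. Which chain is higher depends on the exon lengths behind the FPKM, and the recovered reads of Ifngr2 were not whole. Ifnlr1 over Il10rb was 0.480, 0.545 and 0.550 in Sham, 0.526, 0.579 and 0.545 in H/R and 0.8, 0.849 and 0.866 in EGR1OV. Sham and H/R overlapped here, and EGR1OV lay above both. The exact two-sided permutation p of each ratio in EGR1OV against Sham was 0.1, the smallest possible with 3 against 3. Because the measure was chosen after the values were seen, this p is a description and no independent evidence.

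**Figure D4:**
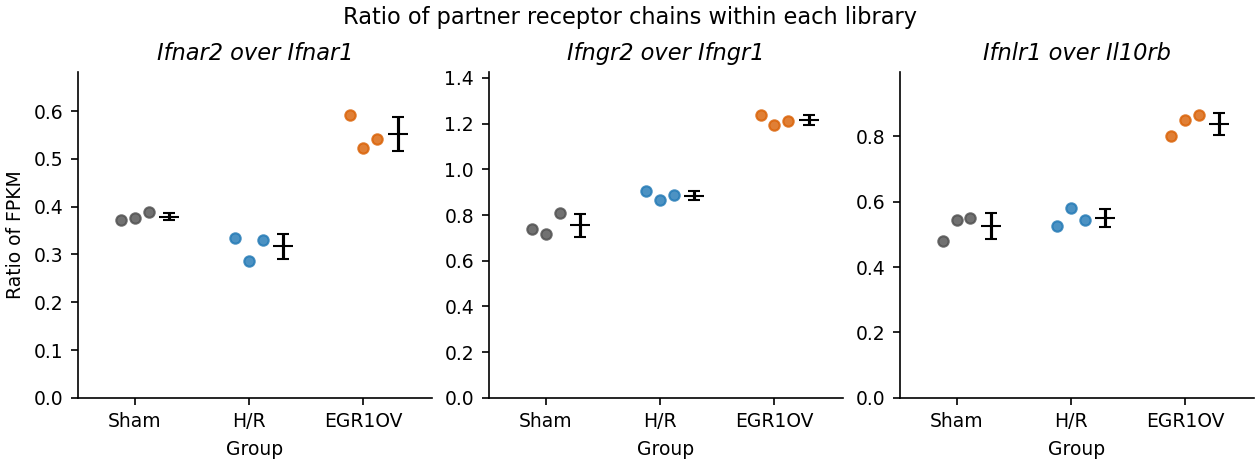
Ratio of the FPKM of partner receptor chains within each library (vertical axes from 0, linear) for Ifnar2 over Ifnar1, Ifngr2 over Ifngr1 and Ifnlr1 over Il10rb. Points are libraries of Sham, H/R and EGR1OV, and the black bar and whiskers are the group mean and SD (n = 3). All 3 ratios are highest in EGR1OV, and Ifngr2 over Ifngr1 exceeds 1 only there.

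Of the receptor genes, 4 lie in tandem on chromosome 16, all on the plus strand, in the order Ifnar2, Il10rb, Ifnar1 and Ifngr2, over 192387 bases from 91372783 to 91565169. Ifnar2 ends 574 bases before Il10rb begins, and these neighbours had log2 differences of 0.39 and 0.04 in EGR1OV. The annotated model Gm21970 overlaps both of them on the same strand. Along the cluster a called rise, no call, a small negative difference and a positive difference followed each other. Among 12 further genes of the region, 10 were tested, none was called higher in EGR1OV by limma or voom (2 were higher at an unadjusted limma p under 0.05). Limma called 1 lower, Tmem50b (log2 difference -0.68, limma adjusted p 1.1e-05), and voom 2, Tmem50b and Dnajc28. Of all tested genes, limma called 9.87% higher and 6.51% lower. With no fold threshold 5 of the 10 had a limma adjusted p under 0.05, beside the 45.9% of all tested genes. Their median log2 difference was -0.04, beside 0.02 over all genes tested.

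The letters GCGNGGGCG, the site of the Egr family, were in 4.7% of all upstream windows. Among the 8 member genes with a RefSeq window they were found in those of Ifnar1 and Ifngr2, which differed in opposite directions in EGR1OV. The 150 bases before each start are shown to place the match, which is in capitals, on GRCm38.p6 (chr16:91485065-91485214 and chr16:91546909-91547058, plus strand, 5′ to 3′).
Ifnar1: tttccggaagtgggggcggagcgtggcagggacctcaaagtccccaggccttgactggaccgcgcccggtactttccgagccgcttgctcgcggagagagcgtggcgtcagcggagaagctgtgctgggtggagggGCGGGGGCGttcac
Ifngr2: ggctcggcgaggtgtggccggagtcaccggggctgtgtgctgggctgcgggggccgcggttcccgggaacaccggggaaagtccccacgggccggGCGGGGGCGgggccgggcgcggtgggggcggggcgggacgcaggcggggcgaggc
In Ifnar1 the match lay at -14 to -6 and in Ifngr2 at -55 to -47. Both matches overlap the letters GGGCGG of the Sp1 box, which were in 32.7% of windows. The window of Ifngr2 was richer in G and C than 95.1% of all windows (74.0%), and that of Ifnar1 richer than 83.8% (65.6%), whereas that of Ifnb1 was at 39.6%. The windows of Ifnar2, Ifngr1 and Ifnlr1 did not hold GCGNGGGCG. The NF-kB letters GGGANNTTC, found in that of Ifnb1, were also in that of Ifngr2, at -74 to -66 on the opposite strand, and in that of no other member.

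Below the receptors, the genes of the signalling kinases and factors were higher in EGR1OV and none was called by limma after H/R. Of 6 such genes, 4 were called higher in EGR1OV against Sham, where 9.87% of all tested genes were. The 6 had limma adjusted p under 0.05, as did 45.9% of all tested genes, each of the 6 with a positive difference. Stat2 went from 3.20, 3.77 and 2.71 FPKM in Sham to 71.0, 73.3 and 66.4 in EGR1OV (log2 difference 4.08, limma adjusted p 4.92e-10), and Irf9 from 3.76, 5.14 and 3.90 to 23.0, 22.6 and 22.1 FPKM (2.17). Both genes, whose products belong to the complex below both receptor pairs, are themselves known to be induced by interferon. The kinases moved less, with log2 differences of 0.63 for Tyk2, 0.51 for Jak2 and 0.23 for Jak1, the last below the fold threshold like Stat3 (0.24). After H/R the 6 genes had log2 differences of -0.29 (Irf9) to 0.03 (Tyk2), none was called by limma, and 2 had an unadjusted limma p under 0.05, both lower. Voom on the recovered reads called 1, Irf9, lower.

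**Figure D5:**
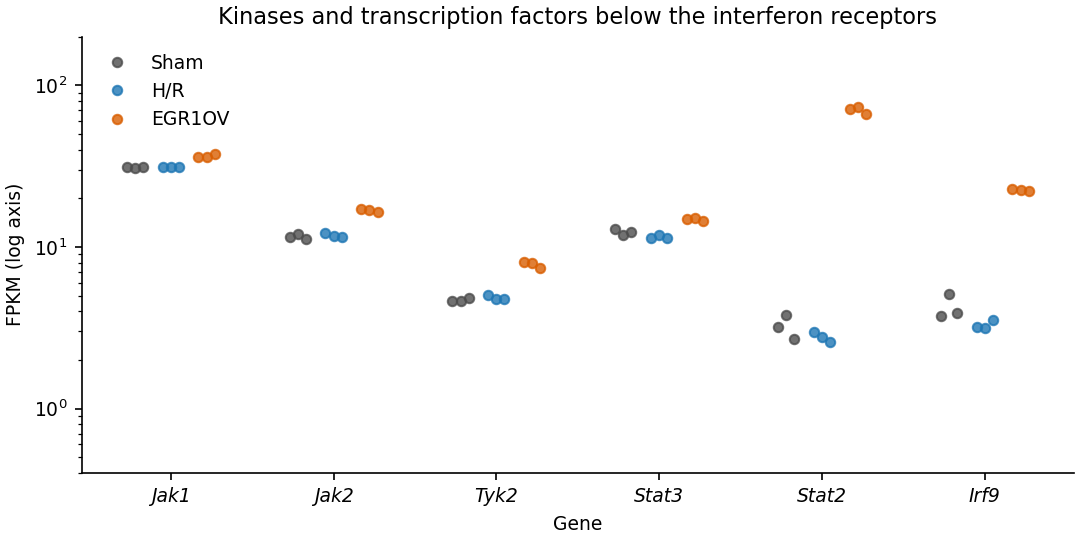
FPKM per library (vertical axis, log scale) of the kinase genes Jak1, Jak2 and Tyk2 and the transcription factor genes Stat3, Stat2 and Irf9 in Sham, H/R and EGR1OV, with 3 points a group. Stat2 and Irf9 sit far above Sham and H/R in EGR1OV, the kinases and Stat3 only slightly above.

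Among 14 genes of proteins that lower interferon signalling or receptor amount, 5 were called higher in EGR1OV and none lower by limma or voom (3 were lower at an unadjusted limma p under 0.05). Of all tested genes, limma called 9.87% higher and 6.51% lower. Usp18, which binds IFNAR2 and blocks further signalling, went from 0.894, 1.93 and 1.09 FPKM in Sham to 165, 169 and 173 in EGR1OV (log2 difference 6.23, limma adjusted p 4.93e-10). Ube2l6, an enzyme that attaches the protein ISG15, differed by 5.17, Socs1 by 1.17 and Prkd2, a kinase known to promote IFNAR1 uptake, by 0.51. The median over the 14 was 0.06, beside 0.02 for all genes tested. After H/R limma called none and voom 1, and the median was 0.03, beside -0.03 for all genes. Of the 14, 5 had an unadjusted limma p under 0.05, and 1 had a limma adjusted p under 0.05, as did 11.7% of all tested genes.

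Upstream of Ifnb1, 25 sensor, adaptor and transcription factor genes were tested, and 15 were called higher in EGR1OV, where 9.87% of all tested genes were. The median log2 difference of the 25 was 0.73. None was lower, by limma, by voom or at an unadjusted limma p under 0.05. Irf7, the factor that amplifies interferon transcription, went from 0.918, 0.942 and 0.610 FPKM in Sham to 218, 228 and 223 in EGR1OV (log2 difference 6.95, limma adjusted p 1.38e-11). Zbp1 and Dhx58, both nucleic acid sensors or regulators of them, differed by 4.5 and 4.26, and Ifih1, a sensor of RNA, by 3.17. The means of Zbp1 (0.180 and 0.0911 FPKM) and Dhx58 (0.388 and 0.279) in Sham and H/R were below 0.5 FPKM. Both genes passed the filter only through EGR1OV, so they had to differ. Irf3, the factor that starts the response, differed by 0.19, below the fold threshold. After H/R limma called none of the 25 and voom 1, 5 had an unadjusted limma p under 0.05 and the median was -0.000767. Of the 5, 1, Nfkb1, also had a limma adjusted p under 0.05 (0.00135, log2 difference 0.25), as did 11.7% of all tested genes. Nfkb1 was below the fold threshold in limma and was the gene that voom called, higher.

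Downstream, the 21 listed targets of type I and III interferon were all called higher in EGR1OV, where 9.87% of all tested genes were. Their median log2 difference was 4.77. The 4 largest differences were those of Isg15 (7.29), Ifit1 (7.13), Ifit3 (6.89) and Rsad2 (6.77). Some targets had means below 0.5 FPKM in both Sham and H/R, Rsad2 among them (0.496 and 0.332). Like Ifnb1, these passed the filter only through EGR1OV and had to differ. After H/R 1 of the 21, Rtp4, was called lower by limma and by voom (log2 difference -0.57, limma adjusted p 0.0331), and the median was -0.08. Of 12 tested targets of type II interferon, 8 were called higher in EGR1OV and 4 lower, where 9.87% and 6.51% of all tested genes were. Those higher included Gbp3 (5.92), Cxcl10 (5.23), Gbp2 (5.18) and Igtp (4.65), which type I interferon also induces. The 4 lower genes, named after their values were seen, were the class II antigen genes H2-Eb1 (-1.27), H2-Aa (-1.19) and H2-Ab1 (-0.70) and their chaperone gene Cd74 (-0.53). Macrophages express these genes, and the part of macrophages in their differences was not tested. After H/R limma called Cxcl10 (0.51) and Gbp2 (0.27) higher, and voom called 4, these with Socs1 and H2-Ab1. These lists were chosen with results of these data known, so their direction is no independent evidence.

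Il10rb also pairs with receptors for other cytokines, and 11 genes of that family were listed, of which 4 were tested. Il10ra, the partner of Il10rb for interleukin 10 and a gene of leukocytes, fell from 0.713, 0.656 and 0.675 FPKM in Sham to 0.241, 0.227 and 0.204 in EGR1OV (log2 difference -0.46, limma adjusted p 0.00246). The macrophage markers were lower there too, and a link between Il10ra and these markers was not tested. F3, tissue factor, fell from 305, 304 and 309 to 219, 219 and 235 FPKM (-0.45). Il20rb (0.21) and Il24 (0.27) were not called by limma, and voom called Il20rb higher (0.48 on its log2 scale). The other partner chains were near 0, with Il22ra1 at most 0.0476 FPKM and Il20ra at most 0.189. Il22ra2, Il10, Il19, Il20 and Il22 had no value above 0.184 FPKM. After H/R neither limma nor voom called any of the 4, and 1, F3, had an unadjusted limma p under 0.05. Its limma adjusted p was 0.043 (log2 difference 0.12), and 11.7% of all tested genes had an adjusted p under 0.05.

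The genes most like each member over the 9 libraries were sought among 7588 genes whose mean was 5 FPKM or more, by Pearson r of log2(FPKM + 1). The 9 points share their groups, so any gene with a similar difference in EGR1OV correlates, and these r are a description. Ifnlr1 was closest to Pxk (0.996), Plxnd1 (0.991) and Arrdc1 (0.990), and 1293 genes had an r above 0.9 with it. Ifnb1 was closest to Ubr2 (0.997), Cachd1 (0.996) and Fbxw17 (0.996), with 1391 genes above 0.9. Ifngr2 was closest to Nfkb1 (0.985), which encodes an NF-kB subunit, Sash1 (0.985) and Cd82 (0.984). The closest genes of these 3 members all had positive differences in EGR1OV against Sham, from 0.18 to 1.57 on the log2 scale. Ifnar2 was closest to AI314180 (0.986), Akap10 (0.984) and Psmd10 (0.976). Ifngr1, which was lower in EGR1OV, was closest to Robo1 (0.993), a guidance receptor, Card10 (0.991) and Kif1a (0.990). Ifnar1 was closest to Met (0.985), the hepatocyte growth factor receptor, Snx7 (0.968) and Snu13 (0.968), with 187 genes above 0.9. Il10rb, the member that did not separate the groups, had 2 genes above 0.9, Slc39a3 (0.947) and Twnk (0.903), followed by Map2k7 (0.889).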

How the data were processed

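The authors deposited one table of FPKM with a column per library, replicates not pooled. The submitters' processing notes name HISAT2 2.1.0, Bowtie2 2.2.3, TopHat2 and mm9, with no role or order, but 94.6% of gene positions in the table equal GRCm38 (GENCODE M21), so positions are given on GRCm38. The read counter is not given in the sources used here. Low FPKM values are multiples of what 1 read is worth. With GENCODE M21 exon lengths, 94.0% of 162956 values of 1 to 1000 reads were whole within 0.02. Those of Ifnar1 and Ifngr2 were not, and their reads are not printed.

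Groups came from sample titles. All 9 libraries entered 1 fit (limma 3.58.1 in R 4.3.3, two-sided, moderated with a trend, Benjamini-Hochberg) of log2(FPKM + 1) over the 13985 genes whose mean was 0.5 FPKM or more. Fold thresholds against Sham are the study's. The fit was tested on simulated data. Exact two-sided permutation tests compared single genes, with a smallest possible p of 0.1. The share of all genes whose libraries did not overlap between groups was not computed, nor was the share of all tested genes with an unadjusted p under 0.05. Alternatives were another pseudocount, filter, scaling, sample set or fold threshold, the replicate block, voom on recovered reads, and each library left out. Replicates differed by more than sampling noise and were kept apart. Same-numbered libraries of different groups correlated by at most 0.062 and differently numbered ones by at most 0.067. These values show no pairing by number but cannot exclude it, and the main fit used none.

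The members and gene lists were chosen with earlier results of these data known. Named genes are the members, Egr1, detected genes of the signalling, ligand and interleukin 10 family lists, and up to 4 called genes with the largest difference from each other list (2 after H/R). Irf3, Nfkb1, Siglech, Tcf4, Umod, Slc34a1, Epcam, Dnajc28 and 4 genes of class II antigen presentation were named beyond this rule, after their values were seen. A gene of the signalling list and a gene of the target list are not reported here. Upstream windows are from RefSeq (GRCm38.p6), found for 8 of the 9 members, and motifs were chosen with the sequences known. Figures were drawn with matplotlib 3.10.9.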

Additional observations from a re-analysis of the deposited data

Results flagged for a closer look

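The differences of EGR1OV and of H/R from Sham were not equal in 5 members, by the direct limma test of EGR1OV against H/R (Benjamini-Hochberg adjusted p 8.32e-05 to 0.000451). The log2 difference between the groups was 0.51 for Ifnar2, 0.54 for Ifnlr1, 0.20 for Ifngr2, -0.22 for Ifnar1 and -0.25 for Ifngr1. For Ifnar1 the differences from Sham had opposite signs, -0.10 in EGR1OV and 0.12 after H/R. For Ifnar2 they were 0.39 and -0.12. For Ifngr1 and Ifngr2 both differences had the same sign and that of EGR1OV was the larger. Ifnb1 also differed, by 1.85, but was at 0 in Sham and H/R and was tested only because of its EGR1OV values, so this is a description. These comparisons share libraries, and 51.0% of all tested genes had an adjusted p under 0.05 in the same test.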

How the results depend on the processing

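Of 272 recomputed values of the members, 256 kept their direction and their side of the threshold. Among the 256 are 13 values of Ifnb1 in each comparison of EGR1OV, where Ifnb1 had to differ. Il10rb changed sign after quantile normalization in EGR1OV against Sham (-0.0348) and against H/R (-0.0429). After H/R it changed sign under median-ratio scaling (0.00292) and quantile normalization (0.00807), and ranged from -0.104 to 0.0208 with a library left out. Ifnlr1 after H/R ranged from -0.0177 to 0.0722 with a library left out. The counts of called members were 1 at a mean of at least 5 FPKM, 6 with no fold threshold and 1 at 2-fold in both comparisons of EGR1OV (3 as reported), and 1 with no fold threshold after H/R (0 as reported). The member called at 2-fold was Ifnb1, which had to differ. With a library left out the counts ranged from 2 to 4 in EGR1OV against Sham. A mean of at least 5 FPKM leaves Ifnb1, Ifnlr1 and Il10rb untested. Called genes in all numbered 2291 in EGR1OV against Sham, and 1315 at a mean of at least 5 FPKM, 6417 with no fold threshold and 484 at 2-fold. They numbered 594 after H/R, and 372, 1635 and 11 under the same alternatives and 995 by voom. They numbered 2641 in EGR1OV against H/R, and 1520, 7135 and 489. With the replicate block, 2309, 516 and 2654 genes were called in EGR1OV against Sham, H/R against Sham and EGR1OV against H/R, and 3, 0 and 3 members. It is not known whether the replicate numbers pair libraries, so this block is an alternative only. Depth limits Ifnl2 and Ifnl3, at 1 read per library or fewer.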
